A study of Mus musculus with 9 samples.

Results

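The genes described here are 9 components of retinoic acid signalling: the nuclear receptors Rara, Rarb, Rarg, Rxra and Rxrg, the cellular retinoic acid binding proteins Crabp1 and Crabp2, the retinaldehyde reductase Dhrs3 and the retinoic acid hydroxylase Cyp26a1. They were taken by symbol from a table of 55471 Ensembl gene identifiers, and each of the 9 matched 1 identifier. The table comes from RNA sequencing of mouse EBs (embryoid bodies), clusters in which embryonic stem (ES) cells leave pluripotency and take up the first embryonic fates. They were grown in hanging drops for 3 days, plated on gelatin, and harvested after a further 3 days of in vitro differentiation. WT EBs came from the E14 ES cell line. KO EBs carried the Tnfaip2-/- genotype, which the study made with CRISPR/Cas9 in the same line. KO_PAPC EBs had the Tnfaip2-/- genotype and received palmitic acid (PA), a saturated fatty acid, and palmitoyl-L-carnitine (PC), its carnitine ester, at 8 µM each, per the study's methods both while EBs formed and after plating. Per the study the untreated KO EBs of that comparison received a vehicle, which the labels do not name. The methods describe EB formation in ES cell medium, with serum replacement and leukemia inhibitory factor, but for treated EBs in fibroblast (MEF) medium with serum. Whether the vehicle-treated EBs formed in that medium too is not stated. If they did not, differences of KO_PAPC EBs cannot be told apart from effects of the medium during EB formation. Each group had 3 libraries, and the study describes its replicates as biological, for KO and KO_PAPC EBs as independent pools of EBs, so that p-values measure the spread between such cultures. The knockout is 1 clone, WT EBs given PA and PC were not analysed here, and a difference between KO and WT EBs cannot be told apart from a difference between that clone and its parental line.

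Retinoic acid is made from retinol in 2 oxidation steps, first to retinaldehyde and then, by the ALDH1A enzymes, to the acid. DHRS3 turns retinaldehyde back to retinol, and CYP26 enzymes hydroxylate retinoic acid and so remove it. Inside the cell CRABP2 carries retinoic acid to the nucleus, while CRABP1 holds it in the cytoplasm. In the nucleus retinoic acid binds a retinoic acid receptor (RAR), which sits on DNA as a partner of a retinoid X receptor (RXR) at paired half-sites. In ES cells and EBs the pathway is known for switching on Hox genes and for promoting neural and endodermal differentiation. Rarb, Cyp26a1, Crabp2 and Dhrs3 are textbook genes that retinoic acid itself induces.

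The DNA element that RAR and RXR are best known to bind is a direct repeat of a half-site with 5 bases between the copies (DR5). RefSeq promoter windows on GRCm38 (250 bases before to 50 bases after a gene's start) were matched by symbol to 8 of the 9 genes, all but Crabp2. They were searched on both strands for the half-site AGGTCA, its variant AGTTCA, the further variant GGTTCA and lastly GGGTCA, each followed at the stated spacing by any of the same 4 half-sites. A DR5 of these letters stood in 2 of the 8 genes with a window, Cyp26a1 and Rarb, against 31 of 27025 genes with a window of this length (0.115%, or 32 of 32851 windows, 0.0974%, since a gene can have several). Of the other pathway genes followed below, 0 of the 41 with a window held it. The stretches that hold them are shown because these are the elements through which the receptors described below are known to act on 2 of the genes. They lie at chr19:37697746-37697822 on the plus strand for Cyp26a1 and at chr14:16575483-16575559 on the minus strand for Rarb, and capitals mark the half-sites.
Cyp26a1: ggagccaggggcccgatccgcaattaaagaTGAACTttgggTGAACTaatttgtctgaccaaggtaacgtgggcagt
Rarb: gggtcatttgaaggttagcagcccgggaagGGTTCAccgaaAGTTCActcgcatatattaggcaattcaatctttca
In Cyp26a1 the half-sites read AGTTCA on the strand opposite to the gene, and the element begins at -32 from the start site. In Rarb the first reads GGTTCA and the second AGTTCA, both on the gene's own strand, beginning at -53 from a RefSeq start that lies inside the annotated gene. Repeats of the same half-sites with 2 bases between them stood in 0.268% of windows, and with 1 base in 0.222%, and in 0 of the 8 genes in each case. These matches describe letters in a window and measure no binding.

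The 9 libraries held 27362913 to 28914312 counts, with a lowest correlation of 0.9988 between log2 values of replicates. No pair of replicates agreed within sampling noise (chi-square per degree of freedom 1.22 to 3.45). Levels are given as CPM (a gene's counts relative to all counts of its library), and fold changes come from edgeR, which rescales libraries by its TMM method. In KO_PAPC EBs this rescaling matters: with library totals in its place, the median log2 fold change of all tested genes moved from -0.017 to -0.18, both against KO and against WT EBs. The split of all called genes then moved from 6801 higher and 7246 lower to 5317 and 8684 against KO EBs, and from 5693 and 6067 to 3616 and 8341 against WT EBs. Small differences of KO_PAPC EBs therefore depend on the scaling, and those of the 9 genes that do are named below. Tnfaip2 itself had 16, 6 and 10 counts in the WT libraries, 5, 6 and 8 in KO and 25, 14 and 16 in KO_PAPC, too few to test between KO and WT EBs. In KO_PAPC EBs it was 3.3-fold higher than in KO EBs (adjusted p = 5.49e-05) and 1.93-fold higher than in WT EBs (adjusted p = 0.0164), at these low counts. Per the study's methods the knockout is a frameshift with a premature stop, so the transcript level does not check the genotype.

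In KO EBs both CRABP genes, Dhrs3 and Rxrg were at a lower level than in WT EBs, by 2.45-fold to 8.28-fold, whereas Rxra and Rarg were moderately higher and Cyp26a1 and Rarb did not pass the test. With PA and PC, KO EBs had 11.3-fold more Rxrg, 8.16-fold more Crabp2, 5.25-fold more Dhrs3 and 2.07-fold more Crabp1 RNA than untreated KO EBs, and 4.39-fold less Cyp26a1 RNA. Against WT EBs, the treated EBs held 4.6-fold more Rxrg, 1.68-fold more Dhrs3 and 4.57-fold less Cyp26a1 RNA, and the fitted Crabp2 difference was -0.023 ± 0.0367 on the log2 scale (SE). In RNA from whole EBs, fewer cells of a type and less RNA per cell cannot be told apart.

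These calls stand in data where most genes differ. Between KO and WT EBs 2 of the 9 genes were higher and 5 lower (adjusted p under 0.05), where 36.8% of all 17355 tested genes were called higher, 37.1% lower and 73.8% either way. Between KO_PAPC and KO EBs 5 were higher and 3 lower, against 39.6%, 42.2% and 81.8% of 17167 genes. Between KO_PAPC and WT EBs 3 were higher and 3 lower, against 34.2%, 36.4% and 70.6% of 16655 genes. On library totals the calls of the 9 genes were 4 higher and 3 lower between KO_PAPC and KO EBs, and 2 higher and 5 lower between KO_PAPC and WT EBs. The share of the 9 genes called was thus near that of all genes in each comparison. At a tested minimum fold change of 2 the calls were 4 of 9 between KO and WT EBs (Rxrg, Crabp1, Crabp2 and Dhrs3, all lower), where the share among all genes was 9.14%. They were 4 of 9 between KO_PAPC and KO EBs (Rxrg, Crabp2 and Dhrs3 higher, Cyp26a1 lower), with 20.7% among all genes, and 2 of 9 between KO_PAPC and WT EBs (Rxrg higher, Cyp26a1 lower), with 8.02%. All 9 passed the filter on low counts in each comparison. The median log2 fold changes of the 9 were -0.18, 0.22 and -0.023 in this order, and those of all tested genes were -0.0059, -0.017 and -0.017. The comparisons share libraries, the KO libraries in the first and second and the WT or KO_PAPC libraries with the third, so their values are set side by side and not counted as separate evidence.

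**Figure D1:**
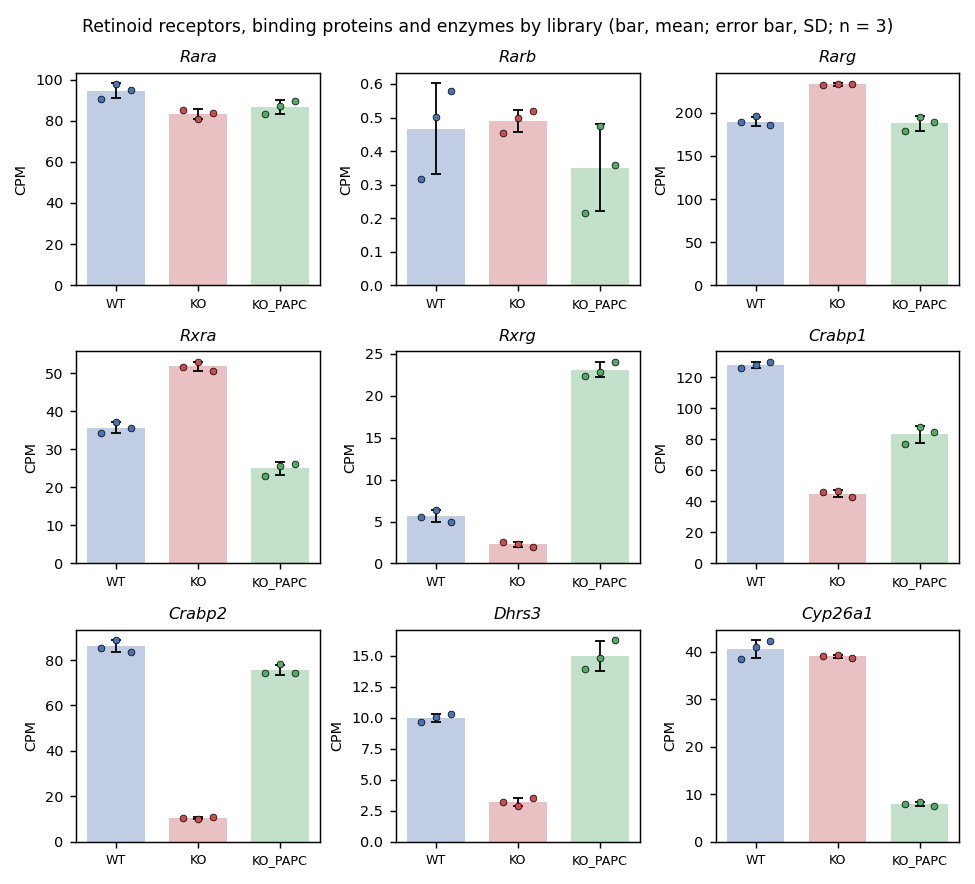
Levels of the 9 retinoid genes in CPM (y axis, from 0, a separate scale for each gene) in WT, KO and KO_PAPC EBs; points are libraries, bars means and error bars SD (n = 3). Crabp2 stood at 10.0 to 10.9 CPM in KO and at 74.2 CPM or more in every other library, Rxrg was highest in KO_PAPC, and Cyp26a1 was at or below 8.41 CPM in KO_PAPC EBs alone.

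**Figure D2:**
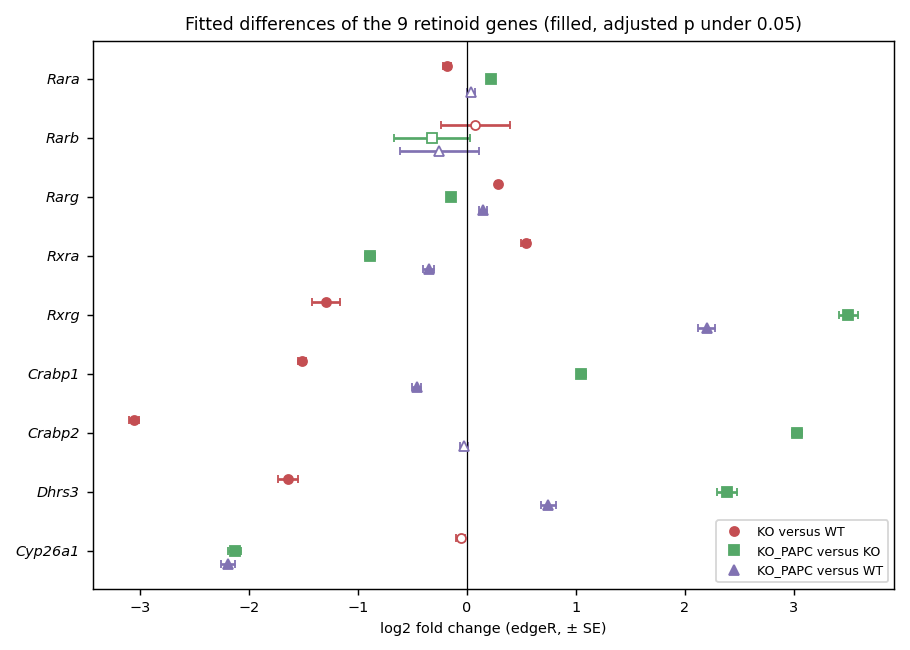
Fitted log2 fold changes (x axis) of the 9 genes in the 3 comparisons, with SE as error bars; filled symbols passed an adjusted p of 0.05. The widest intervals are those of Rarb, which had 6 to 16 counts a library.

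Of the RARs, Rarg was the most abundant. Rarg (ENSMUSG00000001288, chr15:102234938-102257517, minus strand), a receptor needed for much of the retinoic acid response of ES cells, measured 190, 196 and 186 CPM in the WT libraries, 232, 233 and 234 in KO, and 179, 195 and 190 in KO_PAPC. The KO libraries were above all others, while those of WT and KO_PAPC overlapped. Rarg was higher in KO than in WT EBs by 0.29 ± 0.0254 on the log2 scale (SE, adjusted p = 2.82e-12) and lower in KO_PAPC than in KO EBs (-0.14 ± 0.0293, adjusted p = 3.41e-05). Its call against WT EBs, 0.15 ± 0.0337 (adjusted p = 0.000466), did not hold on library totals, where the difference was -0.0196.

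Rara (ENSMUSG00000037992, chr11:98927818-98974942, plus strand), the most broadly expressed RAR, changed little. Its level was 90.6, 98.0 and 94.9 CPM in WT, 85.4, 80.8 and 83.9 in KO and 83.3, 87.0 and 89.8 in KO_PAPC. All WT libraries were above all KO and KO_PAPC libraries, and the latter groups overlapped. The log2 fold change was -0.18 ± 0.0333 (SE) in KO against WT EBs (adjusted p = 1.19e-05) and 0.22 ± 0.0349 in KO_PAPC against KO EBs (adjusted p = 4.27e-07). The second call was lost on library totals (0.0563, adjusted p = 0.134). Between KO_PAPC and WT EBs it was 0.040 ± 0.0374 (adjusted p = 0.346), and -0.125 on library totals (adjusted p = 0.00465), so the order of these groups rests on the scaling.

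Rarb (ENSMUSG00000017491, chr14:16430839-16819156, minus strand), whose promoter carries the DR5 shown above, was barely detected. The libraries held 9, 14 and 16 counts in WT, 13, 14 and 15 in KO and 6, 13 and 10 in KO_PAPC, and the groups overlapped. Its log2 fold changes were 0.077 ± 0.317, -0.32 ± 0.347 and -0.25 ± 0.362 (SE) in KO against WT, KO_PAPC against KO and KO_PAPC against WT EBs, with adjusted p-values of 0.835, 0.392 and 0.555. No difference of this gene was called, and with SE of this size a small one could be missed at this depth. Besides, 38.4% of its exonic length overlaps Top2b and Gm48162 on the other strand, and the library kit does not mark strand, so that part of its counts is uncertain. For none of the other 8 genes did exons overlap another gene. Of the pathway genes followed below, Nr2f6 (54.37% of exonic length), Gbx2 (43.45%), Tgm2 (21.77%), Meis1 (18.28%) and several Hox genes do, so part of their counts is uncertain too.

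Among the RXRs, the common partners of RARs and of several other nuclear receptors, Rxra and Rxrg went opposite ways in each comparison. Rxra (ENSMUSG00000015846, chr2:27676440-27762957, plus strand) measured 34.3, 37.2 and 35.7 CPM in WT, 51.7, 53.1 and 50.6 in KO and 23.1, 25.7 and 26.1 in KO_PAPC. The 3 groups did not overlap, with KO highest and KO_PAPC lowest. Its log2 fold change was 0.54 ± 0.0412 (SE) in KO against WT EBs (adjusted p = 1.17e-13), -0.89 ± 0.0472 in KO_PAPC against KO EBs (adjusted p = 4.41e-19) and -0.35 ± 0.0528 in KO_PAPC against WT EBs (adjusted p = 2.04e-06).

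Rxrg (ENSMUSG00000015843, chr1:167598384-167639623, plus strand) is the RXR with the most restricted expression, known from muscle and parts of the nervous system. It measured 5.50, 6.4 and 4.96 CPM in WT, 2.59, 2.32 and 1.97 in KO and 22.4, 22.8 and 24.1 in KO_PAPC. Again the groups did not overlap, but here KO was lowest and KO_PAPC highest. The log2 fold change was -1.29 ± 0.127 (SE) in KO against WT EBs (adjusted p = 5.53e-11), 3.50 ± 0.0888 in KO_PAPC against KO EBs (adjusted p = 4.24e-29) and 2.20 ± 0.0775 in KO_PAPC against WT EBs (adjusted p = 4.3e-18). In counts, the KO libraries held 57 to 74 reads of this gene and the KO_PAPC libraries 623 to 672.

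To compare receptors with one another, counts were divided by the exon length of each gene, and Rxrb, the third RXR, was added. Of the RAR transcripts, Rarg made up 67.3% ± 0.767 in WT, 74.0% ± 0.578 in KO and 68.9% ± 0.648 in KO_PAPC EBs (SD, n = 3), Rara 32.6%, 25.8% and 31.0%, and Rarb 0.133%, 0.126% and 0.103%. Of the RXR transcripts, Rxrb made up 74.4% ± 0.821, 65.3% ± 0.889 and 66.5% ± 0.956 in the same order. Rxra accounted for 18.6% ± 0.183, 31.4% ± 0.561 and 10.5% ± 0.528, and Rxrg for 6.96% ± 0.759, 3.31% ± 0.445 and 23.0% ± 0.606. Rxrb thus prevailed in every group, while Rxra took the larger part of the rest in WT and KO EBs and Rxrg in KO_PAPC EBs, where shares of counts without division by length put Rxra (15.3%) above Rxrg (14.1%). For the shares of Rara, Rarg, Rxra and Rxrg the libraries of each pair of groups did not overlap, and the exact two-sided permutation test gave p = 0.1, the smallest value that 3 against 3 libraries allow. For Rxrb the exact permutation test gave p = 0.1 in both comparisons with WT EBs and p = 0.2 between KO_PAPC and KO EBs, and for Rarb p = 0.4 to 0.8. As a share of counts Rxrb made up 71.5%, 59.1% and 70.6%, with KO (58.5% to 60.1%) apart from KO_PAPC (69.6% to 71.6%), so that its comparison between these groups depends on the division by length. The summed level of the RARs was 66.4 ± 1.82, 73.9 ± 0.533 and 64.0 ± 2.63 CPM per kilobase (SD, n = 3) in WT, KO and KO_PAPC EBs, and that of the RXRs 35.1 ± 1.10, 30.1 ± 0.204 and 43.7 ± 0.729.

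**Figure D3:**
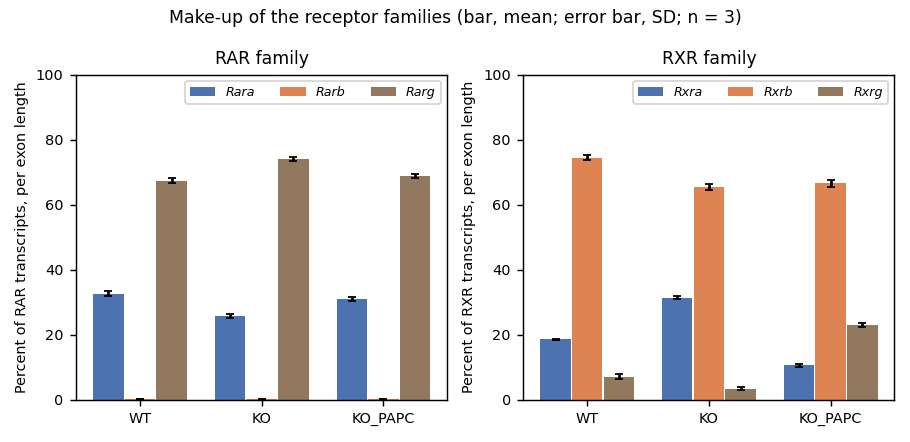
Share of each receptor among RAR transcripts (left) and RXR transcripts (right), in percent of the level per exon length (y axis), in WT, KO and KO_PAPC EBs; bars are means and error bars SD (n = 3). Rarg and Rxrb prevailed in every group, and the Rxrg share was 3.31% in KO and 23.0% in KO_PAPC EBs.

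The gene with the largest loss in KO EBs was Crabp2 (ENSMUSG00000004885, chr3:87948666-87953376, plus strand), the carrier that hands retinoic acid to the RARs. It measured 85.3, 89.0 and 83.8 CPM in WT, 10.2, 10.0 and 10.9 in KO and 74.2, 78.1 and 74.4 in KO_PAPC. KO stood far below both other groups, and the KO_PAPC libraries were just below those of WT. The log2 fold change was -3.05 ± 0.0479 (SE) in KO against WT EBs (adjusted p = 7.58e-33) and 3.03 ± 0.0499 in KO_PAPC against KO EBs (adjusted p = 5.28e-35). Between KO_PAPC and WT EBs it was -0.023 ± 0.0367 (adjusted p = 0.588), and -0.188 on library totals (adjusted p = 6.54e-05), so that the treated EBs were at or slightly under the WT level depending on the scaling.

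Crabp1 (ENSMUSG00000032291, chr9:54764748-54773110, plus strand), the cytoplasmic binding protein, had a similar order of groups but was further from WT EBs after treatment. It measured 126, 128 and 130 CPM in WT, 46.0, 46.5 and 42.6 in KO and 77.1, 87.8 and 84.7 in KO_PAPC, with no overlap between groups. The level was lower in KO than in WT EBs (log2 fold change -1.51 ± 0.0346, SE, adjusted p = 2.35e-28). In KO_PAPC EBs it was higher than in KO EBs (1.05 ± 0.043, adjusted p = 1.25e-22) and lower than in WT EBs (-0.46 ± 0.0389, adjusted p = 1.31e-10). The increase with PA and PC did not pass a tested minimum fold change of 2 (adjusted p = 0.17).

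Dhrs3 (ENSMUSG00000066026, chr4:144892827-144928209, plus strand), which limits the retinaldehyde available for retinoic acid synthesis, measured 9.67, 10.1 and 10.3 CPM in WT, 3.22, 2.89 and 3.49 in KO and 13.9, 14.8 and 16.3 in KO_PAPC. The groups did not overlap, and KO_PAPC was highest. Its log2 fold change was -1.64 ± 0.0951 (SE) in KO against WT EBs (adjusted p = 6.35e-17), 2.39 ± 0.0933 in KO_PAPC against KO EBs (adjusted p = 2.93e-23) and 0.75 ± 0.0728 in KO_PAPC against WT EBs (adjusted p = 1.6e-09).

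Cyp26a1 (ENSMUSG00000024987, chr19:37697798-37701536, plus strand), the main retinoic acid hydroxylase of the early embryo and the other gene with a DR5 in its window, followed none of these patterns. It measured 38.5, 41.1 and 42.3 CPM in WT, 39.1, 39.4 and 38.7 in KO and 7.88, 8.41 and 7.50 in KO_PAPC. WT and KO libraries overlapped, and the treated libraries lay well below both. Between KO and WT EBs the log2 fold change was -0.055 ± 0.0424 (SE, adjusted p = 0.244), and without WT replicate 1 it was -0.0983 (adjusted p = 0.0411). In KO_PAPC EBs it was lower than in KO EBs by 2.13 ± 0.0597 log2 units (adjusted p = 8.62e-28) and lower than in WT EBs by 2.19 ± 0.0621 (adjusted p = 5.55e-20). Primitive and visceral endoderm markers also had their lowest level in the treated EBs. The 9 markers summed to 930 to 981 CPM in WT, 493 to 498 in KO and 164 to 166 in KO_PAPC EBs, with 9 of 9 lower in KO_PAPC than in KO EBs and 1 of 9 higher (Afp, named after its values were seen) and 8 of 9 lower in KO than in WT EBs. Col4a1 (means of 500, 221 and 44.0 CPM in WT, KO and KO_PAPC EBs) and Lamb1 (239, 127 and 99.4 CPM), named after their values were seen, made up most of these sums. Among all genes 42.2% were called lower between KO_PAPC and KO EBs and 37.1% between KO and WT EBs. None of the 9 markers was at or under 3 counts in every library of a group. Their part in the Cyp26a1 difference was not tested.

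On the scale of CPM per kilobase of exon, Crabp1 was the most abundant of the 9 genes in WT EBs (160 ± 2.56, SD, n = 3), ahead of Crabp2 (65.1 ± 2.03) and Rarg (44.7 ± 1.20). Rara (21.7 ± 0.846) and Cyp26a1 (20.5 ± 0.974) overlapped, and Rxra (6.54), Dhrs3 (3.42), Rxrg (2.45) and Rarb (0.0887) followed without overlap. In KO EBs Crabp1 (56.2 ± 2.68) and Rarg (54.7 ± 0.312) could not be ordered, nor could Cyp26a1 (19.7) and Rara (19.1), or Dhrs3 (1.09) and Rxrg (0.999), and Crabp2 (7.85) ranked below Rxra (9.48). In KO_PAPC EBs the order was Crabp1 (104 ± 6.84), Crabp2 (57.2 ± 1.68), Rarg (44.1), Rara (19.9) and Rxrg (10.1), and then Dhrs3 (5.12), Rxra (4.57) and Cyp26a1 (4.0), whose libraries overlapped from each of these to the next. Rarb was last in all groups.

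Of the other pathway genes, a list of 64 in 5 roles was followed. Between KO and WT EBs 18 of the 56 tested were higher and 30 lower, between KO_PAPC and KO EBs 26 of 56 were higher and 19 lower, and between KO_PAPC and WT EBs 20 of 55 were higher and 23 lower (13 and 27 on library totals). The shares called were 85.7%, 80.4% and 78.2%, beside 73.8%, 81.8% and 70.6% of all genes. The counts of each role below stand beside the same shares of all genes.

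Of 16 enzymes that interconvert retinol and retinaldehyde or make retinoic acid, 11 could be tested between KO and WT EBs, with 4 higher and 6 lower. Aldh1a2, the main retinoic acid synthesising enzyme of the embryo, measured 2.36, 1.76 and 1.88 CPM in WT, 13.1, 14.2 and 13.7 in KO and 0.612, 0.585 and 0.933 in KO_PAPC EBs. KO libraries were thus the highest and KO_PAPC libraries the lowest, without overlap, at log2 fold changes of 2.77 ± 0.101 (KO against WT, SE, adjusted p = 1.63e-22), -4.09 ± 0.133 (KO_PAPC against KO, adjusted p = 1.04e-25) and -1.33 ± 0.218 (KO_PAPC against WT, adjusted p = 7.57e-06). Aldh1a3, a related synthesising enzyme at a mean of 0.727, 1.26 and 0.205 CPM, was called in the same directions. Aldh1a1 was not tested, with 0 to 11 counts a library. Rdh10, the main retinol dehydrogenase of the embryo, was lower in KO (9.44 ± 1.01 CPM, SD, n = 3) than in WT EBs (14.2 ± 0.575), and lower in KO_PAPC (8.92 ± 0.751) than in WT EBs, but it did not pass the test between KO_PAPC and KO EBs (adjusted p = 0.374). Rdh11, another retinaldehyde reductase, was at 41.1, 27.0 and 56.1 CPM, and the abundant alcohol dehydrogenase Adh5 at 406, 383 and 478 CPM, each of them called lower in KO than in WT EBs and higher in KO_PAPC than in both. The other calls of this list between KO and WT EBs were Rdh13 and Adh7, higher, and Rdh14, Rdh5 and Dhrs4, lower, names added after their values were seen. Between KO_PAPC and KO EBs 5 of 11 were higher (Rdh11, Adh5 and, added in the same way, Rdh14, Rdh5 and Dhrs4) and 4 lower (Aldh1a2, Aldh1a3, Rdh13 and Adh7). Between KO_PAPC and WT EBs 3 of 10 were higher (Rdh11, Adh5 and Dhrs4) and 3 lower (Aldh1a2, Aldh1a3 and Rdh10). The Dhrs4 call rests on the scaling, with a mean of 25.4 CPM in both groups and a log2 fold change of 0.000382 on library totals (adjusted p = 0.995). On library totals 2 of the 10 were higher and 4 lower in KO_PAPC than in WT EBs.

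Among 8 tested genes of retinol uptake, transport and storage, 4 were higher in KO than in WT EBs and 1, the retinol receptor Stra6, lower (1.54 against 2.27 CPM, adjusted p = 0.0032). Among the higher ones were the serum carrier Rbp4, the retinol esterifying enzyme Lrat and Ttr, the serum partner of RBP4 (named after its values were seen). The Lrat libraries of KO and WT EBs overlapped, and without KO replicate 2 its call was lost (log2 fold change 0.679, adjusted p = 0.053). Between KO_PAPC and KO EBs the list had 4 lower calls, among them Rbp4, Lrat and Ttr, and 2 higher. Rbp4 measured 13.8 to 14.1 CPM in WT, 21.1 to 23.5 in KO and 2.19 to 2.80 in KO_PAPC EBs. In the treated EBs it was thus below the level of WT EBs (log2 fold change -2.30 ± 0.0964, SE, adjusted p = 1.37e-16). Of the 7 calls between KO_PAPC and WT EBs, the 4 lower ones were Rbp4, Ttr, Lrat and Dgat1, an acyltransferase of retinol and diacylglycerol. Fabp5, a lipid carrier that can pass retinoic acid to PPARD, was at 21.3 and 22.2 CPM in WT and KO EBs (adjusted p = 0.318). In KO_PAPC EBs it was at 34.6 CPM, higher than in both. Rbp7, added after its values were seen, was also called higher in KO_PAPC EBs than in KO (adjusted p = 0.00452) and WT EBs (adjusted p = 0.0204), but its KO_PAPC and WT libraries overlapped. On library totals the list had fewer higher calls, with 1 higher and 5 lower between KO_PAPC and KO EBs. Between KO_PAPC and WT EBs these were 2 higher and 4 lower.

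The remaining CYP26 hydroxylases were scarce. Cyp26b1 averaged 0.930, 0.645 and 0.531 CPM and Cyp26c1 0.875, 0.540 and 0.278 CPM in WT, KO and KO_PAPC EBs. Cyp26c1 was called lower in KO than in WT EBs (adjusted p = 0.0461) and in KO_PAPC than in KO EBs (adjusted p = 0.0487), both close to the threshold, and both genes were called lower in KO_PAPC than in WT EBs. With DESeq2 in place of edgeR neither Cyp26c1 call held (adjusted p = 0.131 and 0.157), nor did that of Cyp26b1 against WT EBs (adjusted p = 0.146).

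All 13 receptor partners and cofactors were tested, and between KO and WT EBs 6 were higher and 7 lower. Rxrb was lower in KO EBs (77.4, 78.1 and 79.0 CPM) than in WT EBs (101, 106 and 105), and highest in KO_PAPC EBs (115, 116 and 115), without overlap between groups. Ncoa3, a coactivator of nuclear receptors, had the opposite order with means of 239, 422 and 150 CPM (KO against WT 0.82 ± 0.0226, KO_PAPC against KO -1.32 ± 0.0262, log2 fold change and SE). The corepressor Ncor1 followed with 227, 257 and 191 CPM. Nrip1, a corepressor that retinoic acid induces, was lower in KO than in WT EBs (21.7 against 24.7 CPM, adjusted p = 0.00179). With TMM scaling it did not pass the test in either comparison of KO_PAPC EBs. Between KO_PAPC and KO EBs 5 of the 13 were higher (Rxrb and, named after their values were seen, Crebbp, Nr2f1, Nr2f2 and Nr2f6) and 6 lower, and between KO_PAPC and WT EBs 4 were higher (Rxrb and, named in the same way, Ep300, Crebbp and Nr2f6) and 6 lower. The Ep300 and Crebbp differences against WT EBs (0.087 and 0.11, log2 fold change) were not called on library totals (-0.0779 and -0.0522, adjusted p = 0.0595 and 0.173). On library totals 2 of the 13 were higher and 9 lower in KO_PAPC than in WT EBs. Nrip1 was then among the lower ones (20.4 against 24.7 CPM), so its result against WT EBs rests on the scaling.

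**Figure D4:**
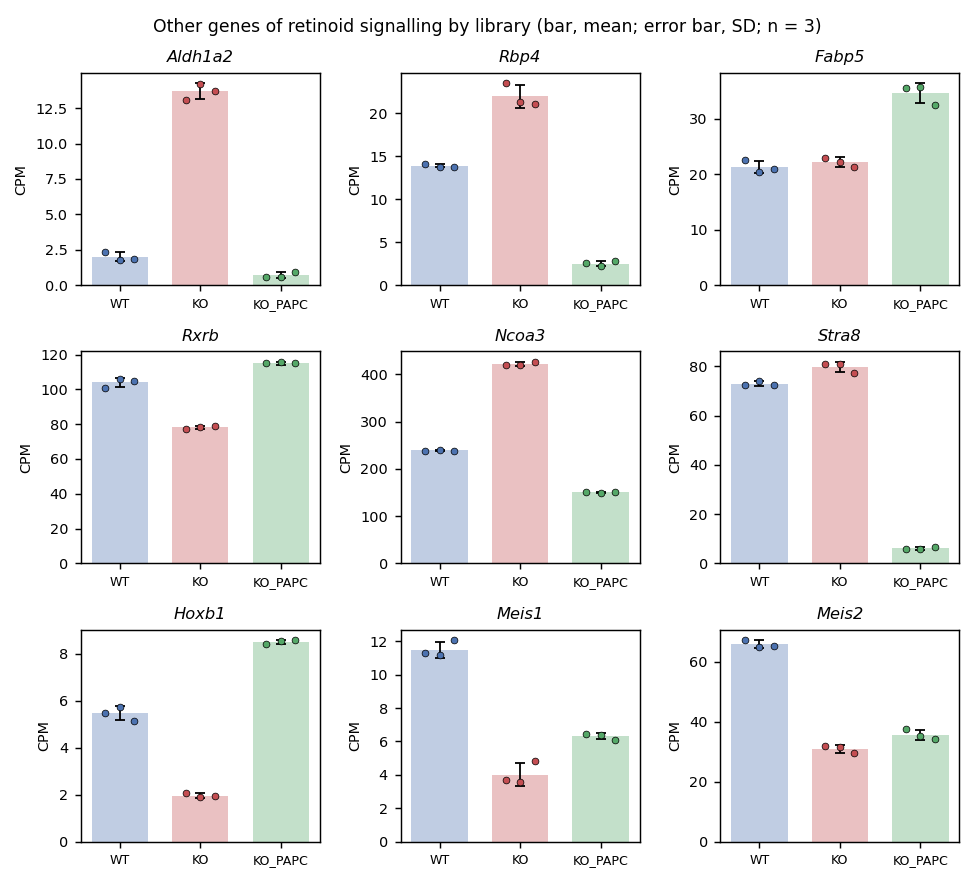
Levels of 9 further genes of retinoid signalling in CPM (y axis, from 0, a separate scale for each gene) in WT, KO and KO_PAPC EBs; points are libraries, bars means and error bars SD (n = 3). Aldh1a2, Rbp4, Ncoa3 and Stra8 had their highest mean in KO EBs, Fabp5, Rxrb and Hoxb1 in KO_PAPC EBs, and Meis1 and Meis2 in WT EBs.

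The response genes are transcripts known to rise when retinoic acid is given. Of 22 tested, 15 were lower and 4 higher in KO than in WT EBs (Stra8, Gbx2 and, named after their values were seen, Foxa1 and Wt1), with a median log2 fold change of -1.1. Between KO_PAPC and KO EBs 14 were higher and 4 lower (among them Stra8, Tgm2 and, named in the same way, Foxa1), with a median of 0.99, and between KO_PAPC and WT EBs 10 were higher and 8 lower, with a median of 0.15. On library totals these became 7 higher and 8 lower with a median of -0.018, and between KO_PAPC and KO EBs 14 and 4 with a median of 0.82. Between KO and WT EBs 86.4% of the list was called either way, beside 73.8% of all genes (37.1% lower). For KO_PAPC against KO EBs the share was 81.8%, the same as among all genes (39.6% higher), and against WT EBs 81.8% beside 70.6%. The share called was thus near or moderately above that of all genes. Of the 10 tested Hox genes of the list, which set position along the body axis, 9 were lower in KO than in WT EBs (median -1.7), and Hoxb5, named after its values were seen, was not called (0.35 ± 0.320, log2 fold change and SE, adjusted p = 0.323). In KO_PAPC against KO EBs 8 were higher (median 2.0), and Hoxb4 and Hoxb5 were not called (adjusted p = 0.426 and 0.869).

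Hoxb1, an early hindbrain Hox gene that retinoic acid induces in ES cells, measured 5.50, 5.75 and 5.14 CPM in WT, 2.07, 1.89 and 1.94 in KO and 8.42, 8.55 and 8.58 in KO_PAPC EBs. KO was lowest and KO_PAPC highest without overlap, and the gene was higher in KO_PAPC than in WT EBs (0.80 ± 0.0871, log2 fold change and SE, adjusted p = 1.07e-08). The Hox cofactors Meis1 and Meis2 were below their WT level in both other groups. Meis2 was at 65.1 to 67.4 CPM in WT, 29.5 to 31.9 in KO and 34.3 to 37.6 in KO_PAPC EBs, still lower than in WT EBs (-0.72 ± 0.0425, adjusted p = 1.23e-13), and Meis1 likewise (11.5, 4.02 and 6.31 CPM). Bhlhe40, a transcriptional repressor that answers to hypoxia as well as to retinoic acid, measured 177 to 179 CPM in WT, 36.7 to 37.9 in KO and 533 to 537 in KO_PAPC EBs.

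Some response genes were low in the treated EBs. Stra8, the retinoic acid induced gatekeeper of meiosis, measured 72.3, 74.2 and 72.5 CPM in WT, 81.1, 81.0 and 77.3 in KO and 5.98, 5.70 and 6.85 in KO_PAPC EBs. The KO_PAPC libraries were far below all others (-3.52 ± 0.0574 against KO and -3.40 ± 0.0582 against WT EBs, log2 fold change and SE, adjusted p = 4.02e-35 and 2.28e-24). Tgm2, a transglutaminase induced by retinoic acid in many cells, averaged 7.73 and 7.62 CPM in WT and KO EBs (adjusted p = 0.842) and 2.95 CPM in KO_PAPC EBs. Cdx1, a regulator of Hox genes, was at 1.09 and 1.16 CPM in WT and KO EBs (adjusted p = 0.715) and at 2.31 CPM in KO_PAPC EBs. Gbx2, a homeobox gene of the hindbrain boundary, was higher in KO and KO_PAPC (16.8 and 16.1 CPM) than in WT EBs (12.8 CPM).

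**Figure D5:**
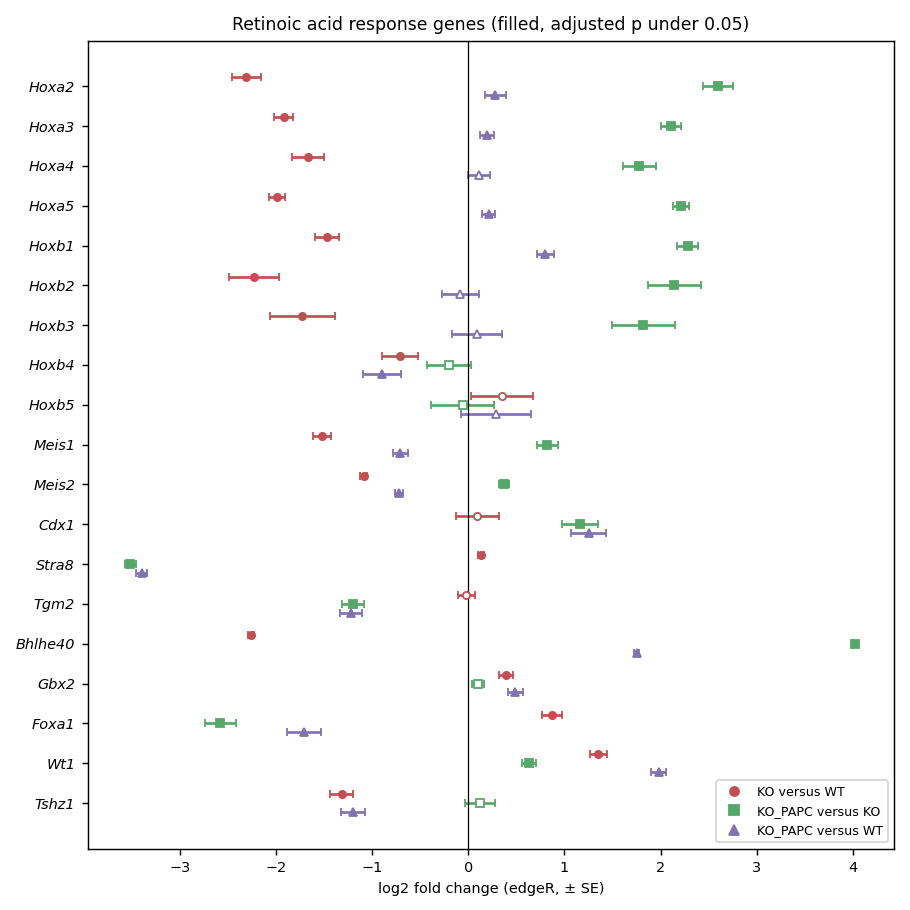
Log2 fold changes with SE (x axis) of 19 of the tested retinoic acid response genes in the 3 comparisons; filled symbols passed an adjusted p of 0.05. Of these 19, 12 were called lower in KO than in WT EBs and 12 higher in KO_PAPC than in KO EBs, while Stra8, Tgm2 and Foxa1 were lower in KO_PAPC than in KO EBs. Among all tested genes 37.1% were called lower in the first comparison and 39.6% higher in the second.

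Markers of cell types that an EB could hold moved in the same comparisons. Of all genes, 73.8% were called either way between KO and WT EBs and 81.8% between KO_PAPC and KO EBs. The 8 neuroectoderm markers summed to 168 to 175 CPM in WT, 75.7 to 79.0 in KO and 311 to 317 in KO_PAPC EBs, the order of groups seen for Rxrg, Dhrs3 and Hoxb1. Of the 7 tested between KO and WT EBs 5 were lower and 2 higher (Sox3 and Olig3, named after their values were seen), and 8 of 8 were higher in KO_PAPC than in KO EBs. The 8 naive pluripotency markers summed to 2090 to 2140 CPM in WT, 3600 to 3630 in KO and 1760 to 1820 in KO_PAPC EBs, the order seen for Rxra, Ncoa3 and Aldh1a2, with 7 of 8 higher in KO than in WT EBs and 7 of 8 lower in KO_PAPC than in KO EBs. The exception was Pou5f1, a core pluripotency gene not specific to the naive state, with 684, 696 and 843 CPM, which was higher in KO_PAPC than in KO EBs (0.44 ± 0.0245, log2 fold change and SE, adjusted p = 1.33e-18). Of the 8 markers it had the highest mean in WT and KO_PAPC EBs, so it weighs most in those sums. Between KO_PAPC and WT EBs 6 of the 8 were lower and 2, among them Pou5f1, higher. Primitive streak and mesoderm markers summed to 51.5 to 55.7, 65.3 to 71.0 and 54.9 to 57.9 CPM, a sum in which members moved both ways. Of the 7 tested, 3 were higher and 3 lower in KO than in WT EBs, and 4 were higher and 3 lower in KO_PAPC than in KO EBs. In the latter the streak genes T (0.292 against 15.5 CPM), Mixl1, Eomes and Tbx6 were higher, and Kdr, Hand1 (4.53 against 0.217 CPM) and Bmp4 lower, names given after their values were seen. Fibroblast markers, which would show feeder cells, summed to 8.66 to 9.38, 16.2 to 17.8 and 10.3 to 12.2 CPM. Most of the KO excess was Thy1 (4.38, 11.6 and 4.82 CPM), while Col1a2 was lower in KO (1.78 CPM) than in WT EBs (2.35 CPM), both named after their values were seen. In this list Dcn and Lum were at or under 3 counts in every WT and KO library, and Postn and Lum in every KO_PAPC library. No marker of the neuroectoderm, pluripotency or mesoderm lists was at or under 3 counts in every library of a group. The part of these cell types in the differences of the retinoid genes was not tested.

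For each of the 9 genes, the protein-coding genes with the most similar profile over the 9 libraries were sought by the root mean square difference of centred log2(CPM + 0.5), among 9614 genes averaging 10 CPM or more. This is a description, since the libraries share their groups. Near Cyp26a1 was Tfpi, a coagulation inhibitor (difference 0.0742, with means of 120, 121 and 24.8 CPM in WT, KO and KO_PAPC EBs). For Rxra they were Ccnd3, a D-type cyclin (0.0320, with 150, 215 and 102 CPM), and Map2k3, a kinase of the p38 cascade (0.0399). Dhrs3 was nearest to Slc16a3, a lactate transporter (0.0784, with 374, 131 and 563 CPM), and Ctxn1 (0.0922). The profile of Crabp2 had A2m, a protease inhibitor (0.103, with 36.6, 4.09 and 36.2 CPM), and Cdk5r2, a neuronal activator of CDK5 (0.173), as its nearest. For Crabp1 they were Slc22a17 (0.0585) and Hapln4 (0.0867), for Rara Sec24b (0.0275) and Mknk2 (0.0282), for Rarg Nub1 (0.0278) and Kif20a (0.0284), and for the scarce Rarb March9 (0.0955) and Hcn2 (0.0966). Rxrg had no close match: its nearest were Ldha, a lactate dehydrogenase (0.354, with 957, 330 and 2090 CPM), and Sema6a, a semaphorin (0.367).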

How the data were processed

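Total RNA of EBs was sequenced from unstranded TruSeq RNA v2 libraries. The deposited table holds raw read counts per Ensembl gene. Per the labels' processing notes the authors used bcl2fastq 2.20.0.422, STAR 2.7.2b and featureCounts 1.6.5 on GRCm38. The study's methods also describe an earlier TopHat2 pipeline for the comparison of KO with WT EBs, and all 9 libraries stand in the 1 table used here. Symbols, exon lengths and coordinates came from GENCODE for GRCm38 (241 identifiers had no symbol), and promoter windows from RefSeq (GRCm38.p6). No batch or date is given in the labels.

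The main test was edgeR 4.0.16 (R 4.3.3) with glmQLFit and glmQLFTest, TMM size factors, filterByExpr and Benjamini-Hochberg adjustment over all tested genes, called at an adjusted p of 0.05. Each comparison used its own 6 libraries, without covariates. The fit was checked on counts simulated from the KO and WT libraries with few genes changed. That check covers neither the KO_PAPC comparisons nor data in which most genes differ. SE was the absolute log2 fold change divided by the square root of F. Alternatives were DESeq2 1.42.0, RLE factors, library totals, other filters, a joint fit, a replicate block, a minimum fold change of 2 and leaving out each replicate. The 9 genes, the lists and the tests were chosen with earlier results of these data known. The text names the 9 genes, Tnfaip2, 21 pathway genes set by name, the 2 genes of each pathway list with the highest mean CPM, and the 2 genes nearest in pattern to each of the 9; other names are marked as added. A few genes that this rule covers are not reported here.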

Additional observations from a re-analysis of the deposited data

How the results depend on the processing

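Of 378 refitted values of the 9 genes, 359 kept direction and call, 12 lost a call, 2 gained one and 5 changed sign; of 1134 values of the other named pathway genes the counts were 1037, 75, 11 and 11. At a minimum fold change of 2, 4, 4 and 2 of the 9 genes were called in KO against WT, KO_PAPC against KO and KO_PAPC against WT EBs. Among the pathway genes these were 14 of 56, 24 of 56 and 7 of 55 tested. The shares among all genes at this threshold were 9.14%, 20.7% and 8.02%. With library totals the log2 fold change changed sign for Rdh10 (-0.0844), Nrip1 (-0.0925) and Gbx2 (-0.0673) between KO_PAPC and KO EBs and for Rara (-0.125) and Rarg (-0.0196) between KO_PAPC and WT EBs, where scaling moves all genes. Without division by exon length, Rxra made up 24.6%, 39.1% and 15.3% of RXR counts in WT, KO and KO_PAPC EBs, Rxrb 71.5%, 59.1% and 70.6%, and Rxrg 3.87%, 1.73% and 14.1%. The order of groups stayed the same for Rxra and Rxrg, whereas Rxrg no longer exceeded Rxra in KO_PAPC EBs and Rxrb in KO_PAPC EBs came near its WT share.

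Leaving out each replicate gave 7 to 8, 8 to 8 and 6 to 6 calls among the 9 genes and 47 to 49, 44 to 48 and 39 to 44 among the pathway genes. The log2 fold change crossed 0 between KO and WT EBs for Cdx1 (-0.0449 to 0.269, below 0 also without KO replicate 2 at -0.00813), Tgm2 (-0.078 to 0.0417, above 0 also without WT replicate 1 at 0.000727) and Rarb (-0.144 without WT replicate 1, to 0.254). Between KO_PAPC and KO EBs it did so for Rdh10 (-0.00072 without KO replicate 2, to 0.153) and Cyp26b1 (-0.397 to 0.0342, with 0.0264 and 0.0266 without KO_PAPC replicates 1 and 3), and between KO_PAPC and WT EBs for Crabp2 (-0.0461 to 0.00168, the latter without WT replicate 2) and Rarb (-0.523 to 0.00585, the latter without KO_PAPC replicate 1). None of these differences was called before. The cause was not tested.

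Replicate numbers did not pair the libraries (correlations of same-numbered deviations -0.0366 to 0.0559). With the number as a block the calls were 7, 8 and 6 among the 9 genes and 47, 44 and 44 among the pathway genes. Depth limits the scarce genes, above all Rarb, Cyp26b1 and Cyp26c1.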
